A study of Mus musculus with 4 samples.

Results

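In AGO2-CLASH hybrid reads of mouse mesangial cells (MMC), 48 genes of the extracellular matrix and of TGF-beta signalling were examined as a group of targets. They were chosen by gene name: collagens, basement membrane components, matrix glycoproteins and proteoglycans, enzymes and inhibitors of matrix remodelling, and ligands, receptors and SMADs of the TGF-beta pathway. Of the 48 genes, 41 were among the 8440 target genes listed with reads, and 26 genes had reads in which the miRNA was aligned in sense over 16 nt or more. No read was listed for Lama4, Nid2, Thbs2, Dcn, Lum, Tgfbi or Smad2.

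MMC, the contractile cells of the kidney glomerulus, came from wild type (WT) C57BL/6J mice and from miR-379KO mice, in which miR-379 was deleted with a CRISPR-Cas9 nickase, and were cultured in RPMI medium without a treatment. Cells were cross-linked with UV light, AGO2 was immunoprecipitated, and the RNAs held by it were ligated, so that a hybrid (chimeric) read joins a miRNA segment to a segment of a target RNA. There were 2 libraries of each genotype, labelled A and B. The study describes its AGO2 immunoprecipitates A and B as independent samples, but the sources used here do not say whether these came from separate mice or cultures. The p-values below therefore measure only the spread between these libraries, which may be technical. Where values are given for each library, those of library A come before those of library B within a genotype.

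Mesangial cells lay down the matrix between the glomerular capillaries, and its accumulation is a hallmark of diabetic kidney disease. TGF-beta is the best known inducer of this matrix: its receptors phosphorylate Smad2 and Smad3, which activate collagen and fibronectin genes, while Smad7 restrains the pathway. A miRNA loaded in AGO2 usually recognises a target through its seed, the bases near its 5′ end, and sites in the 3′-UTR are the best studied. The miRNAs of the let-7 family share a single seed and differ downstream of it.

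The let-7 miRNAs found on these genes are shown first because, pooled as a family, they lead the reads with long miRNA alignments. Sequences are from RefSeq (GRCm38.p6), written 5′ to 3′, with the seed (bases 2 to 8) in capitals.
let-7a-5p: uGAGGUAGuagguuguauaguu
let-7b-5p: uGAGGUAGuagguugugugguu
let-7c-5p: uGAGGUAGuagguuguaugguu
let-7e-5p: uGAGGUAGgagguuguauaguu
let-7f-5p: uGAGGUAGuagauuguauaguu
let-7g-5p: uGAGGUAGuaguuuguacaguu
let-7i-5p: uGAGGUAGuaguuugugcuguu

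The target sites of let-7 that recurred are shown next, as the pairing deposited with the read places them, with the bases opposite seed positions 2 to 7 in capitals. A site without capitals has no such match. The Mmp14, Col5a1 and Col4a2 sites and the Fn1 site with a seed match were chosen after their values were seen.
Thbs1 3′-UTR site: ttctatacaaatatTACCTCa
Mmp14 coding site: gccccctcaacccagaacTACCTCt
Col5a1 coding site: caccagcaccactgtTACCTCc
Fn1 coding site with a seed match: gatcctgtcTACCTCa
Fn1 coding site without a seed match: ggctacagaataactactaccccc
Col4a2 3′-UTR site: ccctccacaacctgttccctgc

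In GRCm38 the Thbs1 site lies at chr2:118126525-118126545 of the plus strand, within the 3′-UTR of ENSMUST00000039559.8. The Mmp14 site lies at chr14:54438693-54438717, plus strand, in the coding sequence of ENSMUST00000089688.5. The Col5a1 site lies at chr2:27951493-27951514, plus strand, in the coding sequence of ENSMUST00000028280.13. The Fn1 site with a seed match lies at chr1:71628418-71628433 and the site without one at chr1:71615520-71615543, minus strand, in the coding sequence of ENSMUST00000188894.6. The Col4a2 site lies at chr8:11449204-11449225, plus strand, in the 3′-UTR of ENSMUST00000033899.13.

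The libraries held between 6326 and 16324 chimeric reads, WT A being the largest. No molecular identifiers were used, and the intervals and floors given here reflect counting error alone. As a check of the genotype, miR-379 was joined to any target in 3 and 1 reads of the WT libraries and in 0 of either miR-379KO library, and none of these targets was a matrix or TGF-beta gene. With each read counted once rather than once for each transcript it is listed with, these numbers are too low to check the genotype firmly. Mesangial markers had 106 reads, 86 of them on Acta2, the smooth muscle actin of contractile cells, while Itga8, Gata3 and Thy1 had none. Podocyte markers had 5 reads, and the markers of endothelial cells, tubule cells and leukocytes had 0. These are counts of chimeric reads, so a count on a marker is not an expression level and does not measure cell content. In such bulk libraries fewer cells of a type and less RNA per cell cannot be told apart.

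The matrix and TGF-beta genes drew between 364 and 426 of every 10000 hybrids in each library. They took 619 of the 16324 chimeric reads of WT A, or 379 per 10000 (95% Clopper-Pearson interval 350.4 to 410), and 276 of those of WT B, or 384 per 10000 (341 to 431). In miR-379KO they took 230 reads, or 364 per 10000 (319 to 413), and 276 reads, or 426 per 10000 (378 to 478). The genotype means were 381 ± 3.23 (SD, n = 2) in WT and 395 ± 44.3 (SD, n = 2) in miR-379KO, a difference of -13.4 that was smaller than the spread of the miR-379KO libraries. It had no stable direction, being 22.4 when each distinct read was counted once and 17.9 without miR-379KO B.

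The reads with a sense miRNA alignment of 16 nt or more were spread less evenly. They numbered 117 and 82 in WT and 83 and 96 in miR-379KO. Per 10000 chimeric reads this was 71.7 (59.3 to 85.8) and 114 (90.8 to 141) in WT, and 131 (105 to 162) and 148 (120 to 181) in miR-379KO. Both miR-379KO libraries lay above both WT libraries, but WT B was closer to miR-379KO A than to WT A. Over all target genes, the share of chimeric reads with such an alignment was also lowest in WT A, at 26.7%, against 31.5% to 35.2% in the other libraries. No p is given for these sums, since the genes were chosen with results of these data known.

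**Figure D1:**
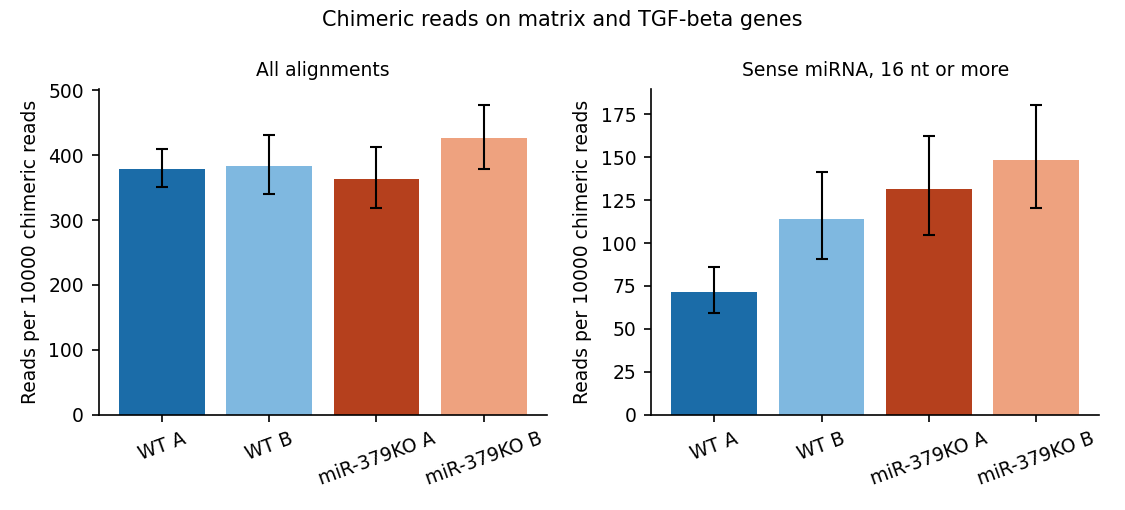
Reads on the 48 matrix and TGF-beta genes per 10000 chimeric reads of each library, for all alignments (left) and for sense miRNA alignments of 16 nt or more (right); bars give the value and lines the 95% Clopper-Pearson interval. The left bars lie between 364 and 426, whereas the right bars run from 71.7 in WT A to 148 in miR-379KO B.

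Many miRNA segments could also be placed in the genome. A miRNA segment together with up to 10 nt of read on either side was found without mismatch in the genome outside annotated miRNA genes for 509 of the 1163 distinct reads of these genes, or 43.8%, against 40.2% for other genes. By library this was 53.6% against 47.7% for other genes in WT A, 35.2% against 31.7% in WT B, and 29.6% against 32.0% and 36.3% against 34.4% in miR-379KO. WT A was thus the highest for other genes too, and the direction of the difference was not the same in every library. Such a segment need not have come from a miRNA. In an alternative chosen after seeing the data, reads with such a segment were removed from the members' counts but kept in the library totals. The difference in share between genotypes then moved from -13.4 to -55.4 per 10000. That of the long sense alignments was -47.1 against -46.9 with them.

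No matrix or TGF-beta gene was called between WT and miR-379KO. With edgeR's quasi-likelihood test, 0 of the 20 members with at least 10 reads passed an adjusted p of 0.05, and 0 of all 686 genes tested did (0%), the smallest adjusted p being 0.262. At an unadjusted p under 0.05 there were 25 genes of 686 (3.64%), and of the 20 members this was Mmp14 alone. DESeq2 called 0 members and 0 genes as well, with 8 genes at an unadjusted p under 0.05, Mmp14 among them. The log2 fold change of WT over miR-379KO was above 0 for 8 members and below 0 for 12, with a median of -0.44 over the members and 0.25 over all genes tested. All log2 fold changes below are WT over miR-379KO from this fit, with Benjamini-Hochberg adjustment over the 686 genes. With 2 libraries in each genotype, groups that do not overlap can easily arise without a difference. How often this occurred over all genes was not counted, so such separations are descriptions only.

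Fn1, which encodes fibronectin, the adhesive glycoprotein of the mesangial matrix, was the most frequent of these targets and ranked 6 among all 8440 target genes. It had 280 and 71 reads in WT and 62 and 70 in miR-379KO. Per 10000 chimeric reads this was 172 and 98.7 in WT against 98.0 and 108 in miR-379KO, so that WT A stood above the other libraries, which lay close together and overlapped between genotypes. The log2 fold change was 0.30 (SE 0.51, edgeR adjusted p = 0.964), and it turned to -0.33 without WT A. With sense miRNA alignments of 16 nt or more, Fn1 had 69 and 25 reads in WT and 18 and 28 in miR-379KO, and the log2 fold change was -0.07. Of these 140 reads 53 (28 and 8 in WT, 6 and 11 in miR-379KO) named miR-690 on a repeat described below, whose assignment to Fn1 is uncertain.

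Thbs1 encodes thrombospondin-1, a matricellular protein that can release TGF-beta from its latent complex. It had 38 and 44 reads in WT and 42 and 37 in miR-379KO. Per 10000 this was 23.3 and 61.2 in WT and 66.4 and 57.1 in miR-379KO, so that WT A was low and the WT libraries enclosed miR-379KO B. The log2 fold change was -0.74 (SE 0.62, edgeR adjusted p = 0.964), and leaving out single libraries moved it between -1.48 and -0.28. With sense miRNA alignments of 16 nt or more the contrast within WT was wider, at 3 and 29 reads, against 35 and 16 in miR-379KO.

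Among the fibrillar collagens, Col1a1, the major chain of type I collagen, had 41 and 36 reads in WT and 12 and 29 in miR-379KO. This was 25.1 and 50.1 per 10000 in WT and 19.0 and 44.8 in miR-379KO, library B being the higher one in each genotype. Its partner chain Col1a2 had 17 and 1 reads in WT and 5 and 8 in miR-379KO. Col3a1, the chain of type III collagen, had 6 and 0 reads in WT and 3 and 7 in miR-379KO, and per 10000 both miR-379KO libraries lay above both WT libraries. Col5a1 and Col5a2 are chains of type V collagen, which nucleates fibrils. Col5a1 had 17 and 16 reads in WT and 4 and 13 in miR-379KO, and Col5a2 had 6 and 1 in WT and 5 and 7 in miR-379KO. The groups overlapped for Col5a1, whereas for Col5a2 the miR-379KO libraries, at 7.90 and 10.8 per 10000, lay above the WT libraries at 3.68 and 1.39. The log2 fold changes of the fibrillar collagens ran from -1.77 for Col5a2 to 0.12 for Col5a1, and every edgeR adjusted p was 0.964 or more. Leaving out single libraries moved Col1a2 between -2.96 and -0.037 and Col5a2 between -2.85 and -1.39, the lower end of both being that without WT A. There the WT group was WT B alone, with 1 read of each gene, and was assumed to vary like miR-379KO. For Col3a1 the value was -1.13 without WT B and -2.45 without miR-379KO A, and no fold is given without WT A, where the WT group held 0 reads.

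The basement membrane genes were led by the chains of type IV collagen, the network collagen of basement membrane and mesangium. Col4a1 had 29 and 12 reads in WT and 6 and 10 in miR-379KO, or 17.8 and 16.7 against 9.48 and 15.4 per 10000, so that the WT libraries lay above the miR-379KO libraries, by little for miR-379KO B. Col4a2 had 15 and 15 reads in WT and 13 and 10 in miR-379KO. Hspg2, the heparan sulphate proteoglycan perlecan, had 19 and 12 in WT and 7 and 15 in miR-379KO. Per 10000 both Col4a2 and Hspg2 overlapped between genotypes. Nid1, nidogen-1, which links laminin to type IV collagen, had 10 and 3 reads in WT and 9 and 6 in miR-379KO. Per 10000, Nid1 was at 6.13 and 4.17 in WT against 14.2 and 9.26 in miR-379KO, the groups not overlapping. None of these genes was called. The log2 fold change was -1.22 for Nid1 (SE 0.92, edgeR adjusted p = 0.964) and 0.36 for Col4a1 (SE 0.82, adjusted p = 0.970), which turned to -0.13 without miR-379KO A. The laminin chains Lamc1, Lamb1 and Lamb2 had 8, 2 and 1 reads in all, too few to be tested.

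Of the other collagens, Col12a1, which associates with fibrils, had 4 and 2 reads in WT and 4 and 1 in miR-379KO, with overlapping groups. Col6a2, a chain of the beaded-filament collagen VI, had 4 reads of a single sequence in WT B, and Col6a1, Col6a3 and Col8a1 had 1 read each. None of these had a sense miRNA alignment of 16 nt or more.

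Of the other glycoproteins, Sparc, a collagen-binding protein, had 31 and 11 reads in WT and 9 and 13 in miR-379KO, or 14.2 to 20.1 per 10000 in every library. Ctgf, the matricellular factor induced by TGF-beta, had 19 and 3 reads in WT and 6 and 10 in miR-379KO, and its relative Cyr61 had 10 and 1 against 3 and 2. For both, WT B was the lowest library and WT A lay within or above the miR-379KO libraries. Tnc, tenascin-C, had 18 and 6 reads in WT and 2 and 9 in miR-379KO, with overlapping groups. Fbn1, fibrillin-1, and Bgn, biglycan, had 9 reads each and Postn, periostin, had 3.

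The remodelling genes included Mmp14, a membrane-bound collagenase that activates Mmp2. It had 3 and 0 reads in WT and 8 and 6 in miR-379KO, or 1.84 and 0 against 12.6 and 9.26 per 10000. A count of 0 in WT B allows up to 4.17 per 10000. Both miR-379KO libraries lay above both WT libraries, with 17 reads in all. The log2 fold change was -3.14 (SE 1.14), with an unadjusted p of 0.00604 and an edgeR adjusted p of 0.691. Without WT B the value was -2.57 and the unadjusted p was no longer under 0.05. Without WT A the WT group held 0 reads, so no fold is given. Without miR-379KO A, Mmp14 had fewer than the 10 reads needed and was not tested. Loxl2, which cross-links collagen, had 13 and 7 reads in WT and 5 and 5 in miR-379KO, or 7.72 to 9.73 per 10000 in every library. Serpinh1, the collagen chaperone, had 6 and 8 reads in WT and 4 and 2 in miR-379KO, and Timp2, a metalloproteinase inhibitor, had 4 and 5 against 6 and 2, each with overlapping groups. Lox had 9 reads, Mmp2 had 7, Timp3 had 6 and Timp1 had 2.

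The ligands, receptors and SMADs of the TGF-beta pathway had few hybrids. The 8 genes together had 9 and 9 reads in WT and 1 and 2 in miR-379KO, or 5.51 and 12.5 against 1.58 and 3.09 per 10000. The groups did not overlap, but the miR-379KO counts lie under the floor of 3 reads. Smad7 had 5 reads, Tgfb1, Tgfbr1 and Smad3 had 4 each, Tgfb2 had 2, and Tgfbr2 and Ltbp1, which encodes a latent TGF-beta binding protein, had 1 each. No gene of this group reached 10 reads, so none was tested. Sense miRNA alignments of 16 nt or more made up 4 of the 21 reads: Smad3 was joined to let-7 and to miR-7678-3p, Smad7 to let-7 and Tgfb2 to miR-1249-5p, each in 1 read.

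**Figure D2:**
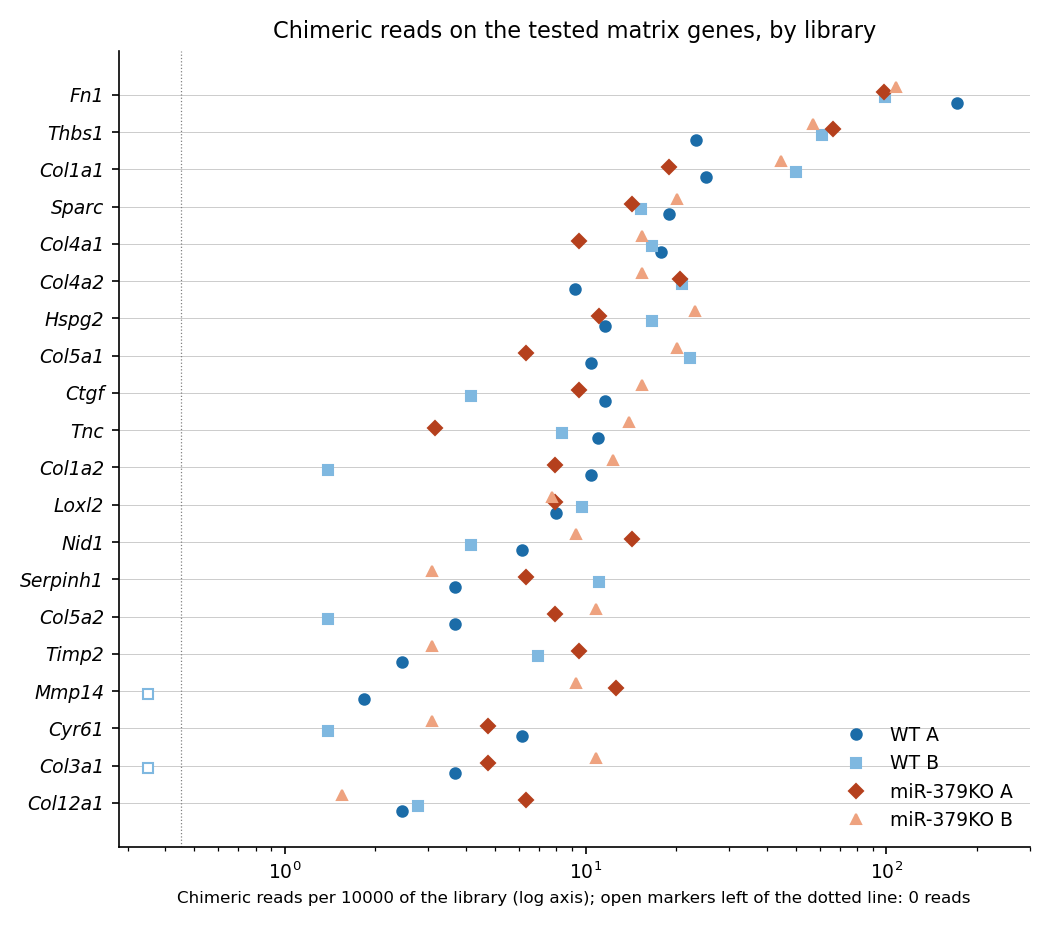
Chimeric reads per 10000 (log axis) on the 20 matrix genes with at least 10 reads, with a marker for each library and open markers for 0 reads. WT A lies above the other libraries for Fn1 and below them for Thbs1, and Mmp14 shows both WT markers left of both miR-379KO markers.

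Per length of the longest annotated transcript, Fn1 led with 58.1 reads per kb over the 4 libraries, followed by Sparc with 27.8, Thbs1 with 27.5, Col1a1 with 19.9 and Ctgf with 15.3. Col12a1, a fibril-associated collagen, had 0.956 reads per kb, the lowest of the genes tested. A further 86 matrix and TGF-beta genes were counted for comparison. Of these 45 had reads, 5 had at least 10 reads, and edgeR called 0, with 0 at an unadjusted p under 0.05.

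With its miRNAs pooled, the let-7 family was the leading partner of these genes once the miRNA alignment was long. Counted singly, miR-690 led with 53 such reads, ahead of let-7b-5p and let-7c-5p with 39 each. The let-7 family was named in 156 reads on 16 genes, all of them sense alignments of 16 nt or more. In none of the 118 distinct let-7 reads was the segment found in the genome outside miRNA genes. The reads numbered 9 and 48 in WT and 49 and 50 in miR-379KO. Per 10000 chimeric reads this was 5.51 (2.52 to 10.5) and 66.7 (49.2 to 88.4) in WT, and 77.5 (57.4 to 102) and 77.2 (57.4 to 102) in miR-379KO. WT A was the low library, and WT B lay close to miR-379KO. Over all target genes, let-7 hybrids were also fewest in WT A, at 142 per 10000 against 508 in WT B and 692 and 730.4 in miR-379KO. The part of this in the comparison of genotypes was not tested.

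Among reads with long sense miRNA alignments, let-7 took a larger share on the matrix and TGF-beta genes than on all other genes pooled, in every library. The share was 7.69% against 4.93% in WT A, 58.5% against 12.7% in WT B, and 59.0% against 18.7% and 52.1% against 21.6% in miR-379KO. Thbs1 held 73 of the 156 let-7 reads. Without it the shares were 6.14% and 37.7% in WT and 39.6% and 46.2% in miR-379KO, each still above that of the other genes. In WT A the shares rest on 9 of 117 reads, and on 7 of 114 without Thbs1. The pool of other genes holds frequent let-7 targets too. After Fn1, the next let-7 targets by reads were Actn1, Acta2 and Actb, with 29, 22 and 20. Acta2 had 86 chimeric reads in all. Genes most like the members were not compared separately. The comparison of let-7 shares was chosen after the values were seen, and no test is given for it.

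**Figure D3:**
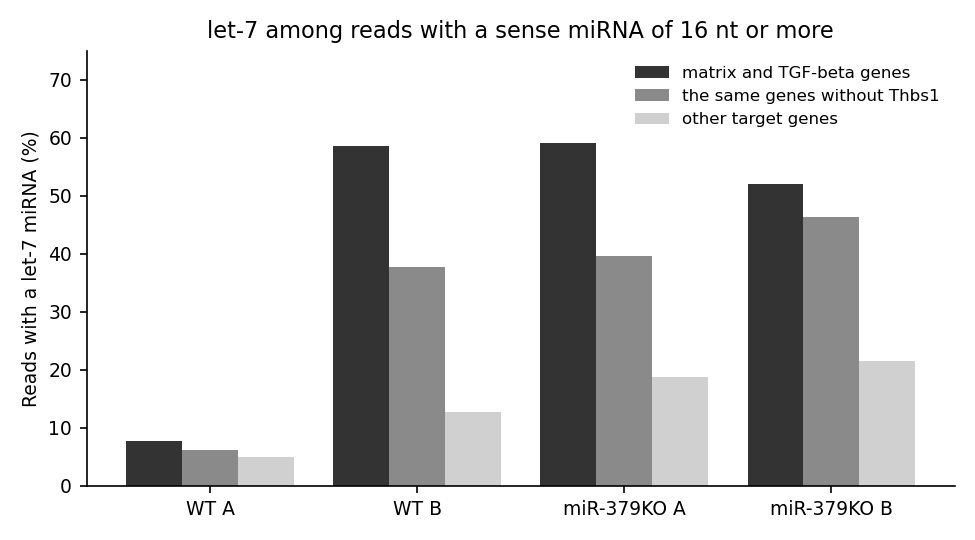
Share of reads naming a let-7 miRNA among reads with a sense miRNA alignment of 16 nt or more, for the matrix and TGF-beta genes, for the same genes without Thbs1 and for other target genes, by library. The dark bars stand at 52.1% to 59.0% in WT B and both miR-379KO libraries and at 7.69% in WT A.

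With the let-7 miRNAs pooled, the most frequent interaction joined let-7 to the Thbs1 3′-UTR site shown above. It was named in 71 reads of 49 distinct sequences, with 2 and 26 reads in WT and 30 and 13 in miR-379KO. The site was present in all 4 libraries, and per 10000 WT B lay between the miR-379KO libraries. All 49 distinct reads held the seed match, all 49 had the miRNA before the target, and their deposited minimum free energies had a median of -24.4 and ran from -25.6 to -20.0. The target segments lay between nt 5187 and 5341 of the 5848 nt transcript. The site sequence occurred at 1 place in GRCm38. The let-7 reads of Thbs1 outside this site were in WT B, with midpoints at nt 2331.5 and 2334.5 of the coding sequence. With 73 let-7 reads in all, Thbs1 tied for the third place among the let-7 targets of these libraries.

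A further Thbs1 site was joined to miR-18a-5p, a member of the miR-17 cluster. It was found in 1 read of WT B and 1 of miR-379KO B, at chr2:118125047-118125071, shortly after the stop codon. The miRNA (seed in capitals) and its site (bases opposite positions 2 to 7 in capitals) were as follows.
miR-18a-5p: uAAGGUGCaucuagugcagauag
Thbs1 3′-UTR site: taaccagcgctggcaatgCACCTTc

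On Fn1, let-7 was named in 31 reads, 4 and 13 in WT and 6 and 8 in miR-379KO, all in the coding sequence. They fell on several stretches, and the libraries overlapped. The stretch from nt 2504 to 2660 held 11 reads, absent from WT A, with the seed match in all 9 distinct sequences. The stretch from nt 3794 to 3901 held 7 reads from all 4 libraries, with the seed match in none.

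Mmp14 was joined to let-7 in 8 reads, 4 in each miR-379KO library and 0 in WT. All 4 distinct sequences covered the same coding site and held the seed match. These 8 reads are part of the 14 miR-379KO reads behind the Mmp14 difference above, which did not pass the adjusted test. Nid1 was joined to let-7 in 7 reads, 2 and 5 in miR-379KO and 0 in WT. Its listed transcript was not in the annotation used here. Col4a2 had 8 let-7 reads in its 3′-UTR, from all 4 libraries and with no seed match. Col5a1 had 4, in 3 libraries, with the seed match in all 4, and Tnc had 5, in 3 libraries, with the seed match in 3. The remaining let-7 hybrids were few: 4 reads on Ctgf, 3 each on Hspg2, Lamc1 and Lox, 2 each on Serpinh1 and Loxl2, and 1 each on Bgn, Smad3 and Smad7.

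**Figure D4:**
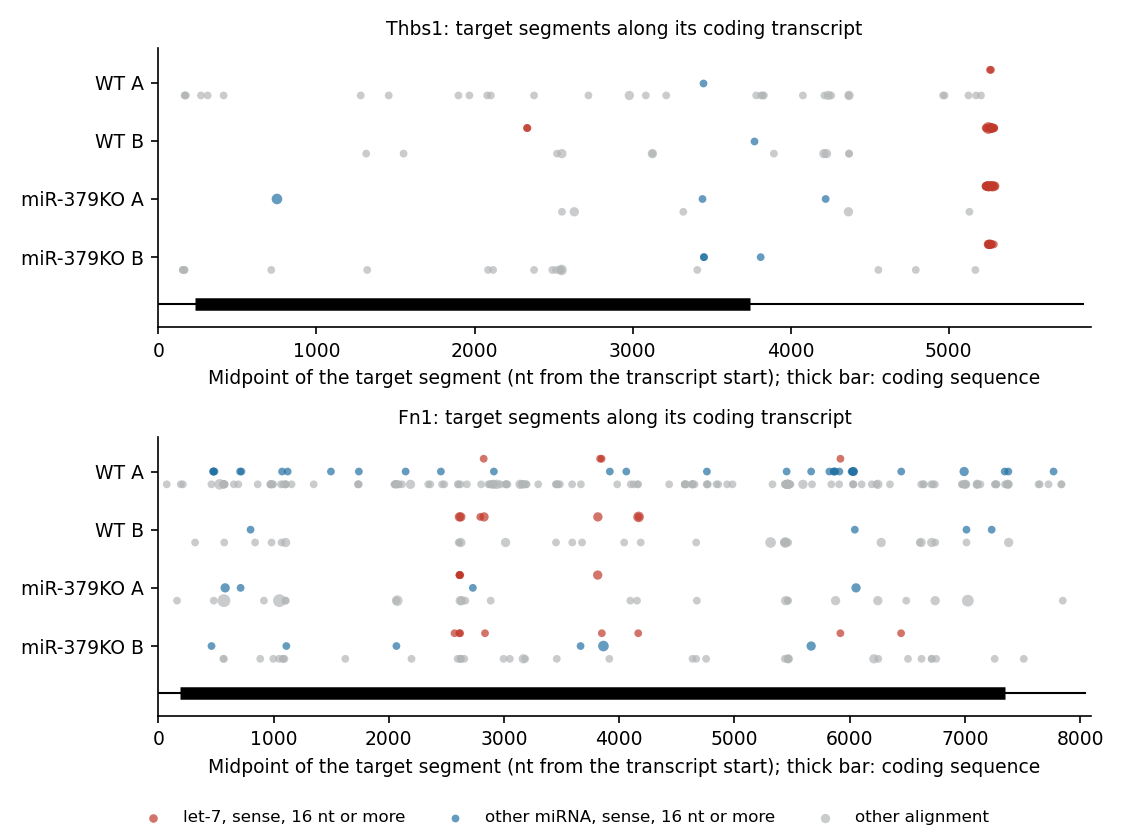
Midpoints of target segments along the main coding transcripts of Thbs1 and Fn1, in nt from the transcript start, by library; point area grows with the read count and the thick bar is the coding sequence. On Thbs1 the let-7 reads gather at the single 3′-UTR site, with 2 reads in WT A, apart from WT B reads at nt 2331.5 and 2334.5. On Fn1 the let-7 reads are spread over several coding stretches.

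The other frequent partners of Fn1 differed from let-7 in where and how they aligned. miR-690 was named in 54 reads, 28 and 9 in WT and 6 and 11 in miR-379KO, and in no read of another member. Of these, 53 had long sense alignments to a target segment that lay in a retained-intron transcript of Fn1 with no coding sequence (ENSMUST00000189160.1). None of the 43 distinct sequences held a seed match, and the target segments were repeat-masked. The miRNA and the site, which has no seed match, show this.
miR-690: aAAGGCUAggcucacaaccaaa
Fn1 intronic site: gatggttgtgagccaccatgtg
These 22 nt occurred 37847 times in GRCm38, and the 47 nt target segment of the read from which the site was taken occurred 146 times, so that read cannot be assigned to Fn1 rather than to another copy. The other target segments were not counted in this way. The Fn1 copy lies at chr1:71604466-71604487 on the minus strand.

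miR-3058-3p was named in 40 reads of Fn1, 34 and 0 in WT and 3 in each miR-379KO library, so that it was found mainly in WT A. All 33 distinct sequences had antisense miRNA alignments of 13 nt, and for 32 of them the segment and its flank were found in the genome outside miRNA genes. The target segments of 32 of the 33 lay in one coding stretch with a median of nt 5416 to 5490. miR-6937-5p was named in 20 reads of Fn1, with alignments of 12 to 13 nt, and miR-8098 in 34 reads on 8 members, 0 of them with a sense alignment of 16 nt or more. miR-5126, whose seed is rich in G and C, was named in 28 reads on 7 members. On Fn1 it had 10 reads, 7 and 1 in WT and 2 and 0 in miR-379KO, at a coding site without a seed match and with a deposited minimum free energy of -42.4.
miR-5126: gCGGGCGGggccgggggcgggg
Fn1 coding site: gtggtccctcggccccgccctg

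The longest miRNA alignments on these genes, of 23 to 25 nt, mostly named miRNAs that occurred in few reads. They are shown because the whole or nearly the whole miRNA was read. The miRNAs are given first with the seed in capitals; miR-125a-5p and miR-351-5p share a seed.
miR-125a-5p: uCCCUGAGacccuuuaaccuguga
miR-351-5p: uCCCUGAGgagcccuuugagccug
miR-155-5p: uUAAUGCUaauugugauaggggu
miR-93-5p: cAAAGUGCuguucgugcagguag
miR-6240: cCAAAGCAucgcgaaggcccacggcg

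Their target sites are given with bases opposite seed positions 2 to 7 in capitals where they match.
Col5a2 coding site of miR-125a-5p: cctgggcttccaggtgctcggggt
Col4a1 coding site of miR-351-5p: cgggcattggcggctctccaggga
Fn1 coding site of miR-155-5p: accaccatcactattagctggag
Fn1 coding site of miR-93-5p: ctgatcagagttcctgCACTTTt
Fn1 coding site of miR-6240: aagcctgagcctgaagagacttGCTTTGa
Sparc coding site of miR-6240: ccccgtggagctgttggcccgagactttga

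The Col5a2 site had 2 reads of a single sequence in miR-379KO B, with a seed match elsewhere in the target segment, and the Col4a1 site in 1 read of miR-379KO B. miR-155-5p was joined to Fn1 in 5 reads, 2 and 0 in WT and 1 and 2 in miR-379KO. miR-93-5p was joined to Fn1 in 3 reads of a single sequence in miR-379KO B, with the seed match in the site at chr1:71615454-71615476. In sense alignments of 16 nt or more, miR-6240 was joined to Fn1 in 5 reads, 4 of them in WT A, and to Sparc in 3 reads, all in WT A. Its Col1a2 hybrid was a single read in miR-379KO B, and the Col3a1 hybrid of miR-145a-5p, a miRNA of contractile cells, was a single sequence with 2 reads in miR-379KO A. Col1a1, whose 22 long sense hybrids named no let-7 miRNA, was joined to miR-5126 and miR-709 in 4 reads each and to miR-149-3p and miR-2137 in 3 each. Such counts are at or near the floor of 3 reads and allow no comparison of genotypes.

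Several miRNAs known for matrix or TGF-beta genes were looked up by name. miR-29a/b/c-3p, which repress many collagen genes, had 37 chimeric reads over all targets and 0 on these genes. miR-21a-5p, which is linked to fibrosis, had 49 and 0, and the miR-30 family had 16 and 0. miR-377-3p had 7 and 0, miR-217-5p had 9 and 0, miR-216a-5p had 3 and 0, and the miR-200 family had 5 and 0. miR-192-5p had no chimeric read on any target. miR-145a-5p had 246 reads over all targets and 3 on these genes, on Col3a1 and Col5a1, and miR-93-5p had 17 and 4, on Col1a1 and Fn1. Over all miRNAs, these genes held 1401 of the 36318 chimeric reads, so a count of 0 for a miRNA with so few reads does not show absence. At this depth a pair that is bound but rarely captured would not be detectable.

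The 3′-UTR share of target segments was described for these genes and for other genes. Among distinct reads placed on a coding transcript, the 3′-UTR share was 22.7% against 67.4% in WT A, 26.7% against 60.5% in WT B, and 30.5% against 55.0% and 22.9% against 58.4% in miR-379KO. The share was lower in 4 of 4 libraries, with a mean difference of -34.6 percentage points. An exact two-sided sign permutation test gave p = 0.13, the smallest value that 4 libraries allow, so no outcome could pass a threshold of 0.05 and the difference is a description. The 3′-UTR made up a median of 25.6% of the length of the members' transcripts and 47.7% of that of other genes. The coding sequence held 346 of the 407 distinct Fn1 reads and 32 of 32 on Tnc, while Thbs1 had 77 of 126 and Serpinh1 10 of 14 in the 3′-UTR.

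The share of seed matches was above that of other genes in some libraries and below it in others. Among distinct reads with a sense miRNA and a sense target, the reverse complement of miRNA positions 2 to 7 was in the target segment for 26.4% of member reads against 30.1% of others in WT A, 32.7% against 30.1% in WT B, and 43.7% against 29.5% and 31.6% against 28.6% in miR-379KO. The mean difference was 3.99 percentage points, higher in 3 of 4 libraries (exact two-sided sign permutation p = 0.5). With sense miRNA alignments of 16 nt or more the mean difference was 13.1 points (p = 0.25 in the same exact permutation test). The shares were 21.4% against 29.5% in WT A, 45.9% against 33.3% in WT B, and 66.7% against 33.2% and 45.7% against 31.5% in miR-379KO. Of the 125 long sense member reads with a seed match, 49 were let-7 reads of Thbs1. The long sense difference without Thbs1 was not computed. The difference over all sense alignments turned to -0.87 points with seed positions 2 to 8 and to -1.62 points without Thbs1, the latter an alternative chosen after seeing the data. Among long sense alignments on members, the seed match was found in 69.6% of 92 distinct reads in the 3′-UTR, in 34.4% of 157 in the coding sequence and in none of 44 on transcripts without coding sequence. Without the let-7 reads of Thbs1, the 3′-UTR share was 34.9% of 43.

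**Figure D5:**
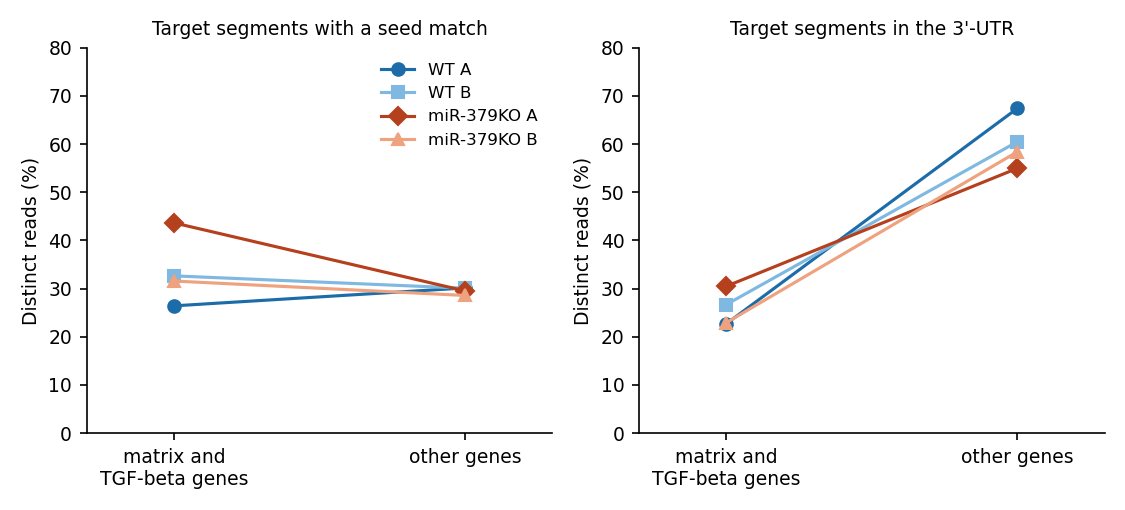
Share of distinct reads whose target segment holds a seed match (left) or lies in the 3′-UTR (right), for the matrix and TGF-beta genes and for other genes; each line joins the values of a library. The seed match lines cross and differ in direction, whereas all 4 lines of the right panel rise from 22.7% to 30.5% on the left to 55.0% to 67.4%.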

How the data were processed

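AGO2-CLASH chimeric reads of MMC from WT (libraries A and B) and miR-379KO mice (libraries A and B) were analysed. The authors merged read pairs with pear (minimum 30 nt), removed merged reads aligned by Bowtie2 2.1.0 (version from the submitters' processing notes) to the mouse genome or transcripts of GENCODE release M13, and searched the rest with blastn, on both strands, against miRBase 21 and mRNAs. The deposited read counts are whole numbers without normalization. The deposited alignment positions, scores (alignment score) and minimum free energies were taken as given, and scores were not tested.

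Here each distinct read was counted once per gene and library with its deposited count. Genes with at least 10 reads over the 4 libraries were tested with edgeR 4.0.16 (R 4.3.3; quasi-likelihood, TMM, genotype only); DESeq2 1.42.0 was an alternative. Simulated counts (611 genes, dispersion 0.05, log2 fold change 3) gave 170 of 196 changed genes called; with dispersion 0.22 (594 genes), 86 of 188. At a log2 fold change of 2 it was 78 of 183 (598 genes) and, with dispersion 0.22 (577 genes), 1 of 175. The fitted dispersion was 0.216. Shares are per 10000 chimeric reads. Regions and coordinates came from GRCm38 with GENCODE M21, counted from 1, on the first listed transcript. miRNA segments with 10 nt of flank were compared with GRCm38 by blastn 2.17.0. Of 487 miRNA names on these genes, 408 were found in the RefSeq table. Of 1163 distinct reads 1132 were listed with 1 gene, and 6 sequences occurred in more than 1 library. Other steps used Python 3.11.15.

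The members and lists were chosen with earlier results of these data known. Named genes were all members tested, every member with a long sense hybrid, and the 10 with the most reads. The remaining members with reads are also named, outside this rule. Sequences were the 12 longest sense alignments, with each pair of gene and miRNA (let-7 pooled) taken once. Ties in length were broken by the reads of the pair, so the last places went to the pairs with the most reads. Further sites of let-7 and miR-5126 were added after their values were seen. Sites of Col1a2 and Col3a1 are described without their sequence.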

Additional observations from a re-analysis of the deposited data

How the results depend on the processing

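The number of matrix and TGF-beta genes called stayed at 0 under all 12 alternatives, and that of all target genes rose to 1 (Rusc2, not a member) with reads listed with 1 gene only, where 208 genes were tested. At an unadjusted p under 0.05 there were 3 members without WT A (Col1a2, Col5a2 and Mmp14, with 1, 1 and 0 reads in WT B, the lone WT library, which was assumed to vary like miR-379KO), 1 without WT B (Thbs1) and 0 without miR-379KO A. The sources state no pairing of libraries by letter, and the deviations of the A libraries had r = -0.06 across 686 genes. With a replicate block by letter, 0 genes were called, 14 had an unadjusted p under 0.05, and the median log2 fold change of the tested members was -0.42. That median was -0.44 in the fit reported, -0.34 without TMM factors, -0.43 with DESeq2, -0.28 with reads listed with 1 gene, -0.24 with targets in sense, -0.12 with distinct reads and -0.067 with no minimum count.

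Of 20 tested members, 9 kept the sign of their log2 fold change under every alternative that gave a value, Thbs1 and Mmp14 among them, and 11 did not; the cause was not tested. Leaving out single libraries gave Col1a1 -0.58 to 0.78, Col4a1 -0.13 to 0.69, Col5a1 -0.64 to 1.13, Cyr61 -0.32 to 0.56, Fn1 -0.33 to 0.66, Hspg2 -1.02 to 0.16, Loxl2 -0.11 to 0.048, Serpinh1 -0.41 to 0.95, Sparc -0.50 to 0.12, Timp2 -1.38 to 0.16 and Tnc -0.77 to 1.45. Counting each distinct read once turned Col5a1 to -0.25, Loxl2 to -0.080, Sparc to 0.17 and Timp2 to 0.023. Cyr61 turned to -0.088 with DESeq2 and -0.24 with the replicate block. Reads listed with 1 gene turned Loxl2 to -0.14 and Sparc to 0.077, and no minimum count turned Sparc to 0.36. Fn1 turned to -0.070 with sense miRNA alignments of 16 nt or more. Of the tested members, 6 could be fitted in that setting, which did not include Mmp14, and Mmp14 could not be fitted without miR-379KO A.

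The difference in share, WT minus miR-379KO, was -13.4 per 10000. It was 22.4 with distinct reads and -44.7 to 17.9 when single libraries were left out. With all chimeric reads kept in the library totals, it was -46.9 with sense alignments of 16 nt or more and -55.4 without genome-contained segments. With sense alignments of 16 nt or more it stayed below 0 throughout, from -68.0 to -25.7 when single libraries were left out, and was -47.8 without the Fn1 intron. The seed match difference turned to -0.87 points with positions 2 to 8 and -1.62 without Thbs1, was 13.1 with sense alignments of 16 nt or more, and was 0.617 to 6.56 when single libraries were left out. The 3′-UTR difference ran from -38.0 to -31.3 points when single libraries were left out, where no p below 0.25 can be had. Members with 1 to 9 reads allow no comparison at this depth. Genome-contained segments, Thbs1 and the Fn1 intron were set aside as alternatives after seeing the data.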
